A study of Mus musculus with 24 samples.

Results

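Genes of sterol and fatty acid synthesis, with the regulators that control them through the sterol regulatory element-binding proteins (SREBPs), were followed in sensory neurons lacking Tsc2. The group was chosen by gene symbol and holds 37 of the 47643 genes in the count tables. It comprises 5 regulators, 19 genes of the sterol branch, 11 genes of the fatty acid branch and 2 sterol efflux transporters. All 37 matched 1 gene identifier each and all passed the filter on low counts, as did 17178 genes of the whole series. The rule that picked them used gene symbols alone, but the list was drawn up with earlier results of these data known.

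SREBPs are transcription factors made as precursors in the membrane of the endoplasmic reticulum. When membrane sterol is low, SCAP escorts them to the Golgi, where proteases release the active fragment. When sterol is plentiful, the INSIG proteins hold SCAP in place, and liver X receptors (LXRs), which bind oxysterols, raise the expression of sterol exporters. Tsc2 encodes a subunit of the complex that restrains mTORC1, a kinase known from other cells to promote SREBP activity. Neurons need sterol and fatty acid for the membrane of their axons.

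Each library was made from 100 GFP-positive cells sorted from the L4 dorsal root ganglion (DRG), which holds the cell bodies of sensory neurons. Mice were 8 to 9 weeks old and of mixed C57BL/6 and AJ background, and the ganglion was taken 3 d after crush of the sciatic nerve on the other side. Control mice carried Nav1.8-Cre, 1 floxed and 1 wild-type Tsc2 allele and the Rosa26-ZsGreen reporter. Nav-Tsc2 mice carried the same Cre and reporter with 1 floxed and 1 null Tsc2 allele. Control nociceptors were therefore expected to be left with 1 Tsc2 copy, and every cell of a Nav-Tsc2 mouse lacked at least 1 copy. The Nav1.8 promoter drives Cre chiefly in C-fiber nociceptors, and some neurons with myelin are included. There were 4 mice per genotype, replicates 1 and 2 male and replicates 3 and 4 female, with 3 libraries per mouse.

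The 24 libraries held between 8339220 and 34228180 counts on genes, and the sums per mouse lay between 47959617 and 61290435. Levels are given in CPM, in which the counts of every mouse are brought to the same library total. A gene was called when the adjusted p of edgeR's quasi-likelihood test was under 0.05 and the log2 fold change was beyond 0.5 in either direction. Tsc2 itself was lower in every Nav-Tsc2 mouse than in any control mouse, with 20.9 ± 5.18 CPM in control and 8.87 ± 1.52 CPM in Nav-Tsc2 mice (SD, n = 4), a log2 fold change of -1.24 (standard error 0.22, adjusted p = 0.004). Of its exon sequence, 7.2% overlaps Pkd1. Among 8 markers of sensory neurons, Prph was called higher and Isl1 and Rbfox3 lower. Tubb3 and Uchl1 had log2 fold changes of 0.40 and 0.46, inside the fold limit, with no overlap between genotypes. Scn10a, the gene of Nav1.8, had -0.14, and Scn11a and Avil had 0.01 and 0.09. The summed level of the 8 was 10300 to 12000 CPM in control and 13100 to 15800 CPM in Nav-Tsc2 mice. Tubb3 alone had means of 5908 and 7774 CPM. In bulk libraries of this kind, fewer cells of a type and less RNA per cell cannot be told apart.

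Of the 37 genes, 12 were called higher in Nav-Tsc2 mice, or 32.4%, against 9.12% of all genes tested. Abcg1 was the only member called lower, against 8.00% of all genes tested. The genes that rose were the SREBP brake Insig1, 5 genes of the sterol branch, 5 genes of the fatty acid branch and the exporter Abca1. In 16 of the 37 genes all 4 Nav-Tsc2 mice lay above all 4 control mice, which held for 14.6% of all genes tested. In Abcg1 and Elovl5 all 4 Nav-Tsc2 mice lay below all 4 control mice, which held for 12.3% of all genes tested. The median log2 fold change was 0.25 over the 37 genes and 0.01 over all genes tested. Of the 24 members not called, 17 had a positive log2 fold change and 5 had an adjusted p under 0.05 with a change inside the fold limit.

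**Figure D1:**
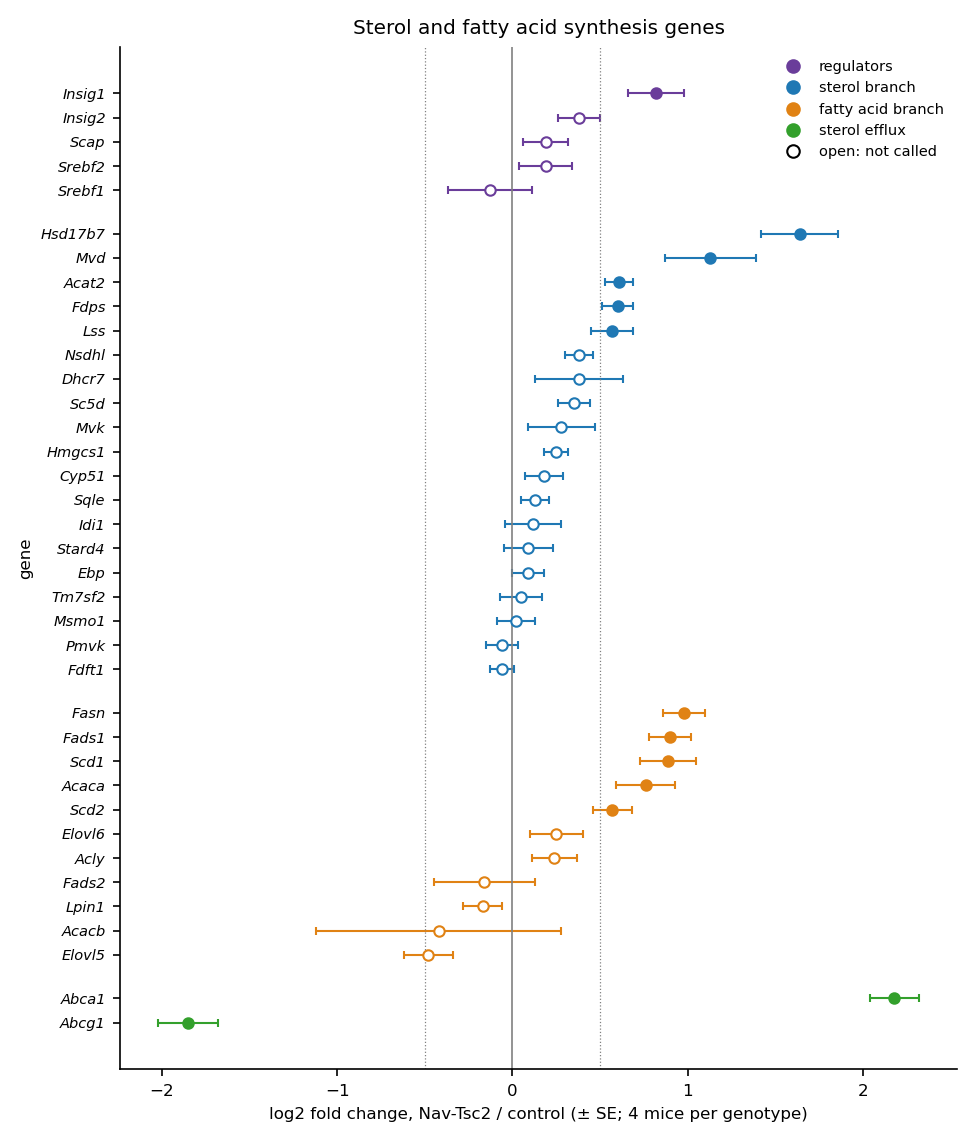
Log2 fold change of each of the 37 genes between Nav-Tsc2 and control mice (x axis; bars are the standard error, 4 mice per genotype), with the genes (y axis) grouped by role and colored by group. Filled points were called and open points were not, and dotted lines mark the fold limit of 0.5. The 2 exporters lie furthest from 0, Abca1 at 2.18 and Abcg1 at -1.85.

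Among the regulators, Insig1 rose and the genes of the transcription factors and of their escort were not called. Insig1, which encodes a sterol-dependent anchor of SCAP and is itself a classic SREBP target, had 134, 162, 155 and 92.2 CPM in control replicates 1 to 4 and 246, 227, 254 and 234 CPM in Nav-Tsc2 replicates 1 to 4. The lowest Nav-Tsc2 mouse exceeded the highest control mouse, and the change on the log2 scale was 0.82, with a standard error of 0.16 (adjusted p = 0.00614). The gap also held between single libraries, since the lowest of 12 Nav-Tsc2 libraries, at 202 CPM, was above each of 12 control libraries. Insig1 lies on chromosome 5 from 28071363 to 28078662 (GRCm38).

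Srebf2, the gene of the SREBP that mainly drives sterol synthesis, had 28.0, 26.8, 40.9 and 38.1 CPM in the control mice and 37.6, 41.9, 35.6 and 37.4 CPM in the Nav-Tsc2 mice. The genotypes overlapped, since both control females reached the range of the Nav-Tsc2 mice, and the change on the log2 scale was 0.19, with a standard error of 0.15 (adjusted p = 0.436). Srebf1, whose protein mainly drives fatty acid synthesis, had 10.2, 19.6, 21.3 and 14.2 CPM in control and 14.2, 17.5, 16.0 and 11.95 CPM in Nav-Tsc2 mice. These ranges overlapped fully, with a log2 fold change of -0.13 (standard error 0.24, adjusted p = 0.758) that turned to 0.02 without control replicate 3. Scap, the escort, had a log2 fold change of 0.19 and was not called. Insig2, the second anchor, had 63.9 to 89.8 CPM in control and 95.0 to 111 CPM in Nav-Tsc2 mice, without overlap. Its log2 fold change of 0.38 (adjusted p = 0.0458) stayed inside the fold limit. Over the 16 alternative fits its adjusted p ran from 0.00375 to 0.119.

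The sterol branch runs from acetyl-CoA through mevalonate, farnesyl diphosphate and squalene to lanosterol and then cholesterol. Of its 19 genes, 5 rose (Acat2, Mvd, Fdps, Lss and Hsd17b7), none was called lower, and the median log2 fold change was 0.25. The rises were spread along the route, 1 at the entry, 2 in the mevalonate arm, 1 at ring closure and 1 in the late steps. The remaining 14 genes had log2 fold changes between -0.06 and 0.38. Summed over the 19 genes, control mice held 4230 to 4350 CPM and Nav-Tsc2 mice 4870 to 5370 CPM.

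Hsd17b7, a ketosteroid reductase of late sterol synthesis, had the largest change of the branch. Its levels were 55.2, 46.5, 49.6 and 84.7 CPM in control and 203, 134, 171 and 227 CPM in Nav-Tsc2 mice, a log2 fold change of 1.64 (standard error 0.22, adjusted p = 0.000945). Replicate 4 was the highest mouse in each genotype, and the genotypes did not overlap. Mvd, which decarboxylates mevalonate diphosphate, had 30.4, 19.3, 51.8 and 29.4 CPM in control and 71.1, 78.4, 60.4 and 76.5 CPM in Nav-Tsc2 mice. The change was 1.13 on the log2 scale, with a standard error of 0.26 (adjusted p = 0.0129), and only control replicate 3 came near the Nav-Tsc2 range.

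Acat2, the cytosolic thiolase that condenses acetyl-CoA at the entry of the route, had the smallest p-value of the branch. It had 341, 373, 358 and 341 CPM in control and 603, 493, 523 and 542 CPM in Nav-Tsc2 mice, a log2 fold change of 0.61 (standard error 0.08, adjusted p = 0.000916). No Nav-Tsc2 library reached down to a control library. Fdps, which makes farnesyl diphosphate, had 31.8, 30.3, 30.0 and 30.6 CPM in control and 46.6, 45.6, 48.7 and 44.6 CPM in Nav-Tsc2 mice. Its control mice were nearly level, and the change on the log2 scale was 0.60, with a standard error of 0.09 (adjusted p = 0.00157), again without overlap of single libraries. Lss, which closes squalene epoxide to lanosterol, had 24.03, 23.6, 18.4 and 20.3 CPM in control and 30.8, 33.01, 33.6 and 31.1 CPM in Nav-Tsc2 mice. The change was 0.57 on the log2 scale, with a standard error of 0.12 (adjusted p = 0.00936), and it met the fold limit in all fits but that without control replicate 3 (0.50).

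Several members share sequence with other genes, so that reads of 50 bases may be lost or assigned elsewhere. Of the 50-base stretches of Acat2 transcripts, 39.1% also occur in transcripts of other genes, chiefly Acat3 and Tcp1. The share was 30.4% for Acaca, 26.2% for Fdps, 26.5% for Fdft1 and 25.3% for Idi1. Fdft1 overlaps Ctsb on the other strand over 18.3% of its exon sequence, and the libraries do not mark strand.

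Genes of the branch with an adjusted p under 0.05 but a change inside the fold limit were Nsdhl (log2 fold change 0.38), Sc5d (0.35) and Hmgcs1 (0.25). All of them had no overlap between genotypes. Over the 16 alternative fits the highest adjusted p was 0.0407 for Nsdhl, 0.0742 for Sc5d and 0.0786 for Hmgcs1. Hmgcs1, which makes the precursor of mevalonate, had 1152 to 1229 CPM in control and 1342 to 1490 CPM in Nav-Tsc2 mice. It also had the highest level per length of all members, 259 ± 7.21 CPM per kilobase of exon in control (SD, n = 4). Sqle, which encodes the squalene epoxidase, had 269 to 292 CPM in control and 277 to 329 CPM in Nav-Tsc2 mice, and its log2 fold change of 0.13 had an adjusted p of 0.301. For Dhcr7, Mvk, Cyp51 and Idi1 the log2 fold change was 0.38, 0.28, 0.18 and 0.12, and for the sterol carrier Stard4 and for Ebp it was 0.09 each. Tm7sf2 had 0.05, Msmo1 0.02, and Pmvk and Fdft1 -0.06 each on the same scale. None of these was called. Dhcr7 varied with the mice included. Control replicate 2 had 124 CPM against 52.1 to 70.6 CPM in the other controls, and without it the log2 fold change was 0.67 (adjusted p = 0.0296), while it was 0.22 without control replicate 1 and 0.23 without Nav-Tsc2 replicate 2.

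The start of a gene is where SREBP and its partner NF-Y are known to bind, at a sterol regulatory element (SRE) and a CCAAT box. The 250 bases before each start in the RefSeq promoter table (GRCm38.p6) were searched on both strands for TCACNCCAC and for CCAAT, and matches of the latter may overlap each other. The table matched 29 of the 37 genes. The SRE letters occurred before 1 of the 29, Hmgcs1, and before 1.22% of all genes in the table, counted over all their promoters, of which 1.05% held it. CCAAT occurred before 21 of the 29 genes and before 37.5% of all genes in the table. These are matches of letters, and binding was not measured. The promoters of the called members with the smallest p-values in the table are shown with that of Hmgcs1, which was added after its match was seen, 5′ to 3′ on the strand of the gene with matches in capitals. The Acat2 and Hsd17b7 windows leave out annotated exons and are 228 and 167 bases long. They lie at chr13:119690101-119690350 (plus strand) for Hmgcs1 and, all on the minus strand, at chr4:53159896-53160145 for Abca1, chr11:120824548-120824797 for Fasn, chr17:12960748-12960975 for Acat2 and chr1:169969242-169969408 for Hsd17b7.
Hmgcs1: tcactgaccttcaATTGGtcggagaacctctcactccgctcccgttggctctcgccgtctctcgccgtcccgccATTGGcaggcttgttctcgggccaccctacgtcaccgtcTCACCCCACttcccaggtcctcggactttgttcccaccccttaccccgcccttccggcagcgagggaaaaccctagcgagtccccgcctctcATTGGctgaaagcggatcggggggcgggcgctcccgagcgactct
Abca1: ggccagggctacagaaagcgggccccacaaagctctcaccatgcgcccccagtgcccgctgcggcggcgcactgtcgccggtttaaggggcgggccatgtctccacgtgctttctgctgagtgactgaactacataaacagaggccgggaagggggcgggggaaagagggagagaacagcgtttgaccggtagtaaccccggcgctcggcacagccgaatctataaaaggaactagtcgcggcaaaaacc
Fasn: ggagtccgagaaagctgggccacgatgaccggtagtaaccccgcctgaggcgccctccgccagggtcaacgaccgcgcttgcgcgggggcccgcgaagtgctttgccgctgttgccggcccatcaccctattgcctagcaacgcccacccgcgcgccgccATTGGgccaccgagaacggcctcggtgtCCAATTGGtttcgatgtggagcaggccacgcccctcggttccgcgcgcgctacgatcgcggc
Acat2: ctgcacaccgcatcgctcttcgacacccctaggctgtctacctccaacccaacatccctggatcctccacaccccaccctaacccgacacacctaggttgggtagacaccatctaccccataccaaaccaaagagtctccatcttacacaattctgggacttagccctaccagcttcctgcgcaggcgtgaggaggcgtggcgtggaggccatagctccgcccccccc
Hsd17b7: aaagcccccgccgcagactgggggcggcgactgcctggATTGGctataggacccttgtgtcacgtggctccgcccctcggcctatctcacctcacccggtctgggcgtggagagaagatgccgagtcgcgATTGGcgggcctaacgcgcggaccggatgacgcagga
The Hmgcs1 window held the SRE match 137 bases before the start and 3 CCAAT matches. Fasn held 3 CCAAT matches, of which 2 overlap on opposite strands, the printed Hsd17b7 window held 2, and Abca1 and Acat2 held 0.

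In the fatty acid branch, the carboxylase Acaca, the synthase Fasn and 3 desaturases rose, while the carboxylase Acacb, the desaturase Fads2, the elongases and citrate lyase were not called. Of the 11 genes, 5 were called higher (Acaca, Fasn, Scd1, Scd2 and Fads1) and 0 lower, and the median log2 fold change was 0.25, or 0.14 to 0.36 with 1 mouse left out. Summed levels ran from 1810 to 2580 CPM in control and from 2850 to 3110 CPM in Nav-Tsc2 mice. Over both synthesis branches together, 10 of 30 genes were called higher.

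Fasn, the multidomain enzyme that builds palmitate, had the smallest p-value of the branch. Its levels were 78.8, 76.8, 95.8 and 70.3 CPM in control and 154, 188, 141 and 150 CPM in Nav-Tsc2 mice, a log2 fold change of 0.98 (standard error 0.12, adjusted p = 0.000725). Each Nav-Tsc2 mouse exceeded each control mouse. Acaca, which makes the malonyl-CoA that Fasn uses, had 13.8, 16.5, 20.3 and 21.7 CPM in control and 32.2, 30.1, 25.8 and 34.1 CPM in Nav-Tsc2 mice. On the log2 scale the change was 0.76, with a standard error of 0.17 (adjusted p = 0.0114). Its paralog Acacb, which makes malonyl-CoA at the mitochondrion, was at 0.491 to 2.33 CPM in control and 0.226 to 1.37 CPM in Nav-Tsc2 mice. At that level its log2 fold change of -0.42 (standard error 0.70) does not set a direction.

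Scd1 and Scd2 encode desaturases that place a double bond in stearate and palmitate. Scd1 had 270, 415, 418 and 265 CPM in control and 632, 614, 616 and 680 CPM in Nav-Tsc2 mice, a log2 fold change of 0.89 (standard error 0.16, adjusted p = 0.00419). Control replicates 1 and 4 lay well below replicates 2 and 3, and the Nav-Tsc2 mice were close together. Scd2, the more abundant of the pair, had 502, 558, 721 and 596 CPM in control and 909, 867, 832 and 916 CPM in Nav-Tsc2 mice. This change was 0.57 on the log2 scale, with a standard error of 0.11 (adjusted p = 0.00585), and without control replicate 1 it was 0.49, just inside the fold limit. Per kilobase of exon, Scd2 exceeded Scd1 in control mice, with 109 ± 17.0 against 69.9 ± 17.6 CPM per kilobase, and in Nav-Tsc2 mice, with 161 ± 7.195 against 130 ± 6.25 CPM per kilobase (SD, n = 4).

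Fads1, a desaturase of polyunsaturated fatty acids, had 48.6, 44.5, 57.1 and 44.3 CPM in control and 93.1, 80.3, 86.9 and 102 CPM in Nav-Tsc2 mice. The change was 0.90 on the log2 scale, with a standard error of 0.12 (adjusted p = 0.000769), with no overlap. Its neighbor on chromosome 19, Fads2, which acts at an earlier step of the same route, was at 3.90 to 7.29 CPM in control and 3.75 to 6.45 CPM in Nav-Tsc2 mice, and its log2 fold change was -0.16.

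Elovl5, an elongase of polyunsaturated chains, had 183 to 247 CPM in control and 129 to 177 CPM in Nav-Tsc2 mice. The genotypes did not overlap, and the log2 fold change of -0.48 (standard error 0.14, adjusted p = 0.0368) lay just inside the fold limit, which it passed in 6 of 16 alternatives. Elovl6, which elongates palmitate, had a log2 fold change of 0.25, and the phosphatidate phosphatase gene Lpin1 had -0.17. Acly, which cleaves citrate to cytosolic acetyl-CoA, had 562 to 861 CPM in control and 791 to 913 CPM in Nav-Tsc2 mice, a log2 fold change of 0.24 (adjusted p = 0.239). These 3 were not called. Acly overlapped because the 2 control females were at 842 and 861 CPM, while the 2 control males were at 562 and 663 CPM.

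**Figure D2:**
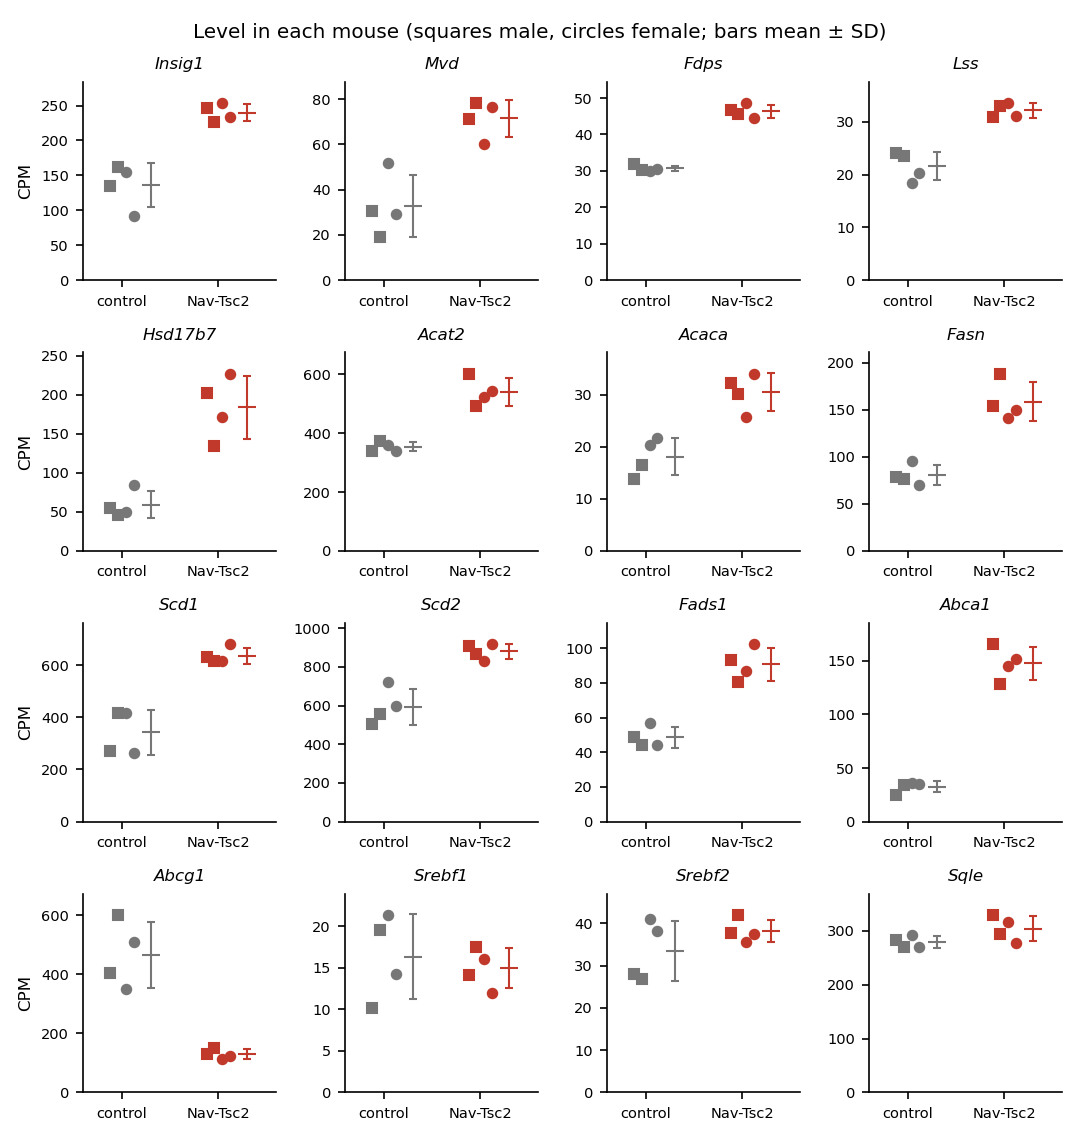
Level in CPM (y axis, from 0) of the 13 called members and of Srebf1, Srebf2 and Sqle, which were not called, in each of 4 control and 4 Nav-Tsc2 mice (x axis); squares are males, circles females, and bars the mean ± SD. In each of the 13 called genes the genotypes do not overlap, and in the other 3 they do.

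The exporters moved in opposite directions. Abca1, which passes cholesterol to lipid-poor apolipoproteins, had 24.9, 34.0, 35.8 and 35.5 CPM in control and 166, 128, 146 and 152 CPM in Nav-Tsc2 mice. The lowest Nav-Tsc2 mouse was far above the highest control mouse, and the change on the log2 scale was 2.18, with a standard error of 0.14 (adjusted p = 2.24e-05), or 4.54-fold. Abcg1, a transporter that hands sterol to lipid-laden particles and also moves it within the cell, had 403, 601, 351 and 510 CPM in control and 131, 152, 112 and 122 CPM in Nav-Tsc2 mice. All Nav-Tsc2 mice were far below all control mice, and the change on the log2 scale was -1.85, with a standard error of 0.17 (adjusted p = 0.000153). Both are known targets of LXR. Abca1 lies on chromosome 4 from 53030787 to 53159895 and Abcg1 on chromosome 17 from 31057675 to 31117988 (GRCm38).

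Neither change rested on 1 library. Abca1 ran from 17.3 to 61.3 CPM over 12 control libraries and from 88.1 to 299 CPM over 12 Nav-Tsc2 libraries. Abcg1 ran from 244 to 714 CPM and from 59.5 to 190 CPM in the same libraries. Per kilobase of exon, Abcg1 stood at 63.9 ± 15.3 CPM per kilobase and Abca1 at 3.14 ± 0.499 in control mice. In Nav-Tsc2 mice the levels were 17.7 ± 2.36 for Abcg1 and 14.3 ± 1.48 for Abca1 (SD, n = 4), and the ranges of the exporters over these mice overlapped. The combined level of both genes was 386 to 635 CPM in control and 257 to 296 CPM in Nav-Tsc2 mice.

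**Figure D3:**
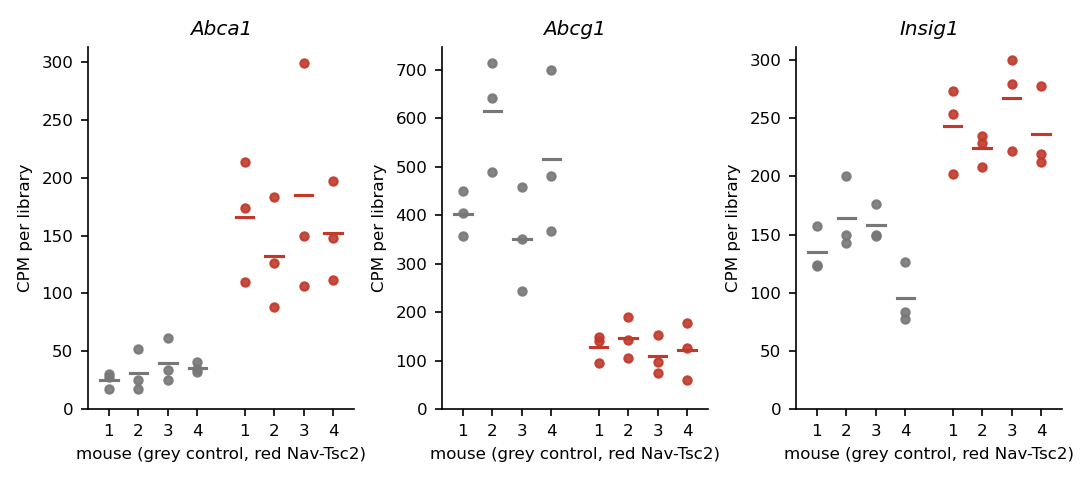
Level in CPM (y axis, from 0) of Abca1, Abcg1 and Insig1 in each of the 24 libraries, arranged by mouse (x axis; grey control, red Nav-Tsc2); each point is 1 library of 100 cells and each short line the mean of the 3 libraries of a mouse. The libraries of the genotypes do not overlap for any of the 3 genes, although Abca1 in Nav-Tsc2 replicate 3 ranges up to 299 CPM.

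Of 12 genes of LXR and sterol handling outside the group, 5 were called higher and 0 lower, against 9.12% and 8.00% of all genes tested. Lipa, the lysosomal lipase that frees cholesterol from its esters, had 82.2 to 108 CPM in control and 255 to 329 CPM in Nav-Tsc2 mice, a log2 fold change of 1.59. Npc2, which binds cholesterol in the lysosome, had a log2 fold change of 0.96, and Soat1, which esterifies cholesterol for storage, had 0.76. Cyp46a1, which makes an oxysterol in neurons, had 1.00 to 3.05 CPM in control and 4.08 to 7.52 CPM in Nav-Tsc2 mice, and its call (log2 fold change 1.41, adjusted p = 0.03) was lost in 5 of 16 alternatives, 4 of which left out 1 mouse (adjusted p up to 0.0893). Ch25h, which makes another oxysterol, had 0 counts in the 12 control libraries and 1.78 to 3.68 CPM in the Nav-Tsc2 mice. Set against 3 counts per control mouse, it was at least 50.4-fold higher. The LXR genes Nr1h2 and Nr1h3 had log2 fold changes of 0.41 and -0.19, and the remaining Mylip, Lpcat3, Stard3, Osbp and Abca5 lay between -0.38 and 0.16. None of these 7 was called.

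Some markers of non-neuronal cells moved with genotype as well, and their part in the results above was not tested. Of 7 macrophage markers, 6 were tested and Cx3cr1 was called higher, with means of 0.0328 CPM in control and 5.71 CPM in Nav-Tsc2 mice. C1qb went the other way, with means of 1.75 and 0.574 CPM, and was not called. The summed level of the list was 2.33 to 7.13 CPM in control and 9.73 to 20.8 CPM in Nav-Tsc2 mice, and C1qa had counts in 1 of 12 libraries of each genotype. Of 7 endothelial markers, 4 were tested, and Flt1, Kdr and Ly6c1 were called higher. Flt1 alone had means of 0.0338 CPM in control and 8.56 CPM in Nav-Tsc2 mice. Pecam1 and Emcn, too low to be tested, went the other way. Their means were 0.422 and 0.384 CPM in control and 0.315 and 0.0309 CPM in Nav-Tsc2 mice. The summed level of the 7 was 0.813 to 2.24 CPM in control and 7.55 to 20.4 CPM in Nav-Tsc2 mice. Cldn5 had counts in 1 control and 3 Nav-Tsc2 libraries. Of 13 markers of satellite glia and Schwann cells, 12 were tested and S100b was called lower. The summed glial level was 2900 to 3050 CPM in control and 1910 to 2480 CPM in Nav-Tsc2 mice. None of 6 fibroblast markers was called, with summed levels of 73.1 to 236 CPM in control and 121 to 196 CPM in Nav-Tsc2 mice. By edgeR, 0 of the 6 had an unadjusted p under 0.05.

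Of 7 genes that supply carbon and reducing power to both branches, 3 were called higher and 1 lower, against 9.12% and 8.00% of all genes tested. Slc25a1, which exports citrate from the mitochondrion, had 32.0 to 72.3 CPM in control and 120 to 169 CPM in Nav-Tsc2 mice, a log2 fold change of 1.69. Acss2, which activates acetate, had a log2 fold change of 0.64, and Idh1, a cytosolic source of NADPH, had 0.60. Acat1, the mitochondrial thiolase, was called lower, with a log2 fold change of -0.67, opposite in sign to the cytosolic Acat2. The other 3 genes of this list were not called. Without control replicate 2 the value for Idh1 was 0.50, and without control replicate 1 or Nav-Tsc2 replicate 1, 2 or 4 the adjusted p for Acss2 was between 0.0621 and 0.0836. Among the genes of SREBP processing and turnover, Sec24d, a coat protein of the vesicles that carry SCAP, was called higher with a log2 fold change of 0.82. The genes of both SREBP proteases, Mbtps1 and Mbtps2, had 0.18 and 0.27 and were not called. The call for Sec24d was lost in 5 of 8 fits with 1 mouse left out (adjusted p up to 0.0799), among them all 4 without a Nav-Tsc2 mouse. Among 13 genes of elongation and desaturation beyond the group, 11 were tested, and Fads3 (1.6) and Elovl2 (1.23) were called higher. Elovl2 was at 1.76 to 2.46 CPM in control and 3.18 to 6.67 CPM in Nav-Tsc2 mice, and without Nav-Tsc2 replicate 1 or 3 its adjusted p was 0.0739 or 0.0515.

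**Figure D4:**
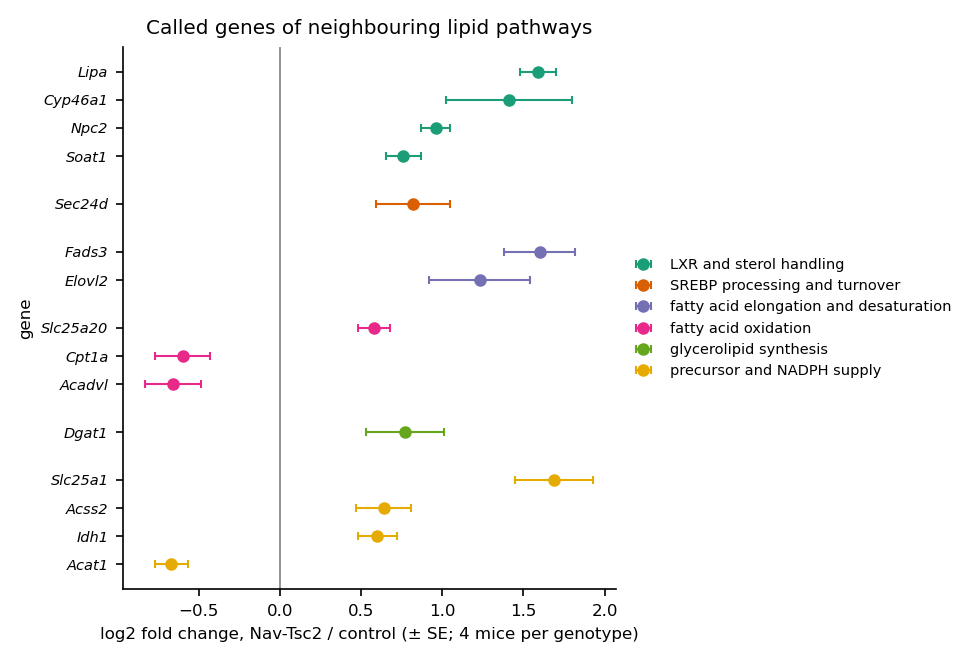
Log2 fold change (x axis; bars are the standard error, 4 mice per genotype) of called genes (y axis) in 6 lists of neighboring lipid pathways, colored by list; Ch25h, with 0 counts in control, is not drawn. Slc25a1, Fads3 and Lipa lie near 1.6, and Acat1, Acadvl and Cpt1a lie below 0.

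Within each sex the comparison rests on 2 mice per genotype. All 13 called members had the same sign in females and males, which follows from the lack of overlap between the genotypes in each of them. Of all 37 members, 28 had the same sign in both sexes. Abca1 had a log2 fold change of 2.06 in females and 2.32 in males, and Abcg1 had -1.88 and -1.83. Larger gaps between the sexes were seen for Mvd, with 0.75 in females and 1.59 in males, and for Acaca, with 0.51 and 1.04. The regulators had a median of -0.0024 in females and 0.53 in males, the sterol branch 0.15 and 0.26, and the fatty acid branch 0.41 and 0.53. No interaction of genotype with sex had an adjusted p under 0.05 among the 37 genes in edgeR's test, against 0.00582% of all genes tested. At an unadjusted p under 0.05 there were 3, Srebf2 (-0.11 in females, 0.54 in males), Acly (-0.01 and 0.53) and Fads2 (0.45 and -0.74), against 9.22% of all genes. The 8 markers of sensory neurons had a median of -0.26 in females and 0.28 in males. Of these markers, 2 had an unadjusted interaction p under 0.05, Scn10a (-0.42 and 0.17) and Scn11a (-0.46 and 0.70). Whether the sorted cells differed between the sexes in a way that bears on the members was not tested.

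**Figure D5:**
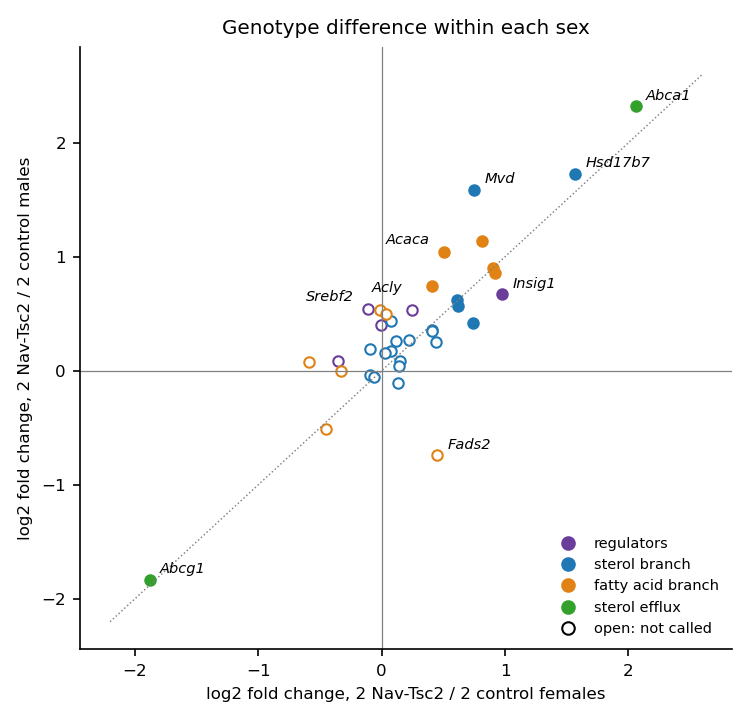
Log2 fold change between 2 Nav-Tsc2 and 2 control females (x axis) and males (y axis) for each of the 37 genes, colored by role, with called genes filled and equality dotted. The called genes lie in the same quadrant for both sexes, and Srebf2, Acly and Fads2 lie off the line.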

How the data were processed

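RNA was amplified from 100 sorted cells per library with the SMARTer Ultra Low kit, which does not mark strand, and sequenced as single reads of 50 bases. The authors checked reads with FastQC, aligned them to mm10 with STAR and deposited raw HTSeq counts per gene and library; versions, annotation and strand setting are not given in the sources used here. A deposited table of the authors' own DESeq2 comparison was not used.

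Identifiers were matched to symbols of GENCODE vM21. Counts were added up over the 3 libraries of each mouse, genes were filtered with filterByExpr, and edgeR 4.0.16 (R 4.3.3) scaled by TMM and tested the genotypes by quasi-likelihood, with Benjamini-Hochberg adjustment over 17178 genes. The standard error is the log2 fold change over the square root of F. The test was tested on simulated data. Of 200 genes simulated as changed it called 77, with 2 false calls, and with no gene changed it made 0 calls. A gene not called may therefore still differ. The members, the lists of related genes and the tests were chosen with earlier results of these data known. Every member was named. Those called, the smallest p-value of each branch, Srebf1, Srebf2 and Insig1 were given in full, and of related lists the called genes, of which some are not reported here. Insig2, Dhcr7, Acacb, Elovl5, Acly and the other genes with ranges were singled out after their values were seen. Interaction of genotype with sex was tested in the same tool. Alternatives used DESeq2 1.42.0, limma 3.58.1, other scalings and 1 mouse left out. Per the study's methods each biological replicate, taken here as a mouse, gave 3 technical libraries, so p-values measure the spread between 4 replicates per genotype. No pair of the 24 libraries was identical. Protein sequences were not used here.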

Additional observations from a re-analysis of the deposited data

Results flagged for a closer look

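In 3 of 74 groups of 4 mice, 1 mouse lay far from the other three, where chance alone flags about 3.7. Tm7sf2 had 45.1 CPM in control replicate 1 against 56.9 to 58.9 CPM in the other control mice. Dhcr7 had 132.5 CPM in Nav-Tsc2 replicate 2 against 90.2 to 97.3 CPM in the other Nav-Tsc2 mice. Abca1 had 24.9 CPM in control replicate 1 against 34.0 to 35.8 CPM in the other control mice, and its log2 fold change was 2.07 to 2.24 when any 1 mouse was left out.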

How the results depend on the processing

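Of 592 comparisons of a member's log2 fold change with its value under an alternative, 570 kept the direction and the side of the threshold. Of the 13 calls, 11 held in all 16 alternatives, and Lss and Scd2 fell to the fold limit without 1 control mouse (0.50 and 0.49). Between 11 and 13 members were called higher with 1 mouse left out. Members called lower numbered 2 with upper-quartile scaling, with libraries weighted equally, with 24 libraries in a mixed model that takes mice as random, and with no fold limit, and 1 to 2 with 1 mouse left out. The added gene was Elovl5. The median of the sterol branch was 0.22 with upper-quartile scaling, with libraries weighted equally and in the mixed model, and 0.18 to 0.28 with 1 mouse left out. The median of the fatty acid branch was 0.57 in the mixed model and 0.14 to 0.36 with 1 mouse left out. In the main fit the middle gene of this branch was Elovl6 (0.25), and the next above it was Scd2 (0.57). Acacb, at no more than 2.33 CPM in any mouse, went from -0.42 in the main fit to 0.61 in the mixed model. The passage of Acacb from below the middle gene to above it is enough to move the middle to the next gene above. The mixed model called 2705 genes higher and 1339 lower, which raised the share of higher calls from 53.3% to 66.9%, and moved the median of all genes to 0.14.

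Signs turned for genes near 0 or at low level, none of them called. Msmo1 was -0.01 with upper-quartile scaling, -0.0006 in the mixed model and -0.07 to 0.10 with 1 mouse left out. In the mixed model Acacb was 0.61 and Fads2 0.21. With 1 mouse left out the ranges were -0.69 to 0.12 for Acacb, -0.34 to 0.03 for Fads2, -0.30 to 0.02 for Srebf1, -0.04 to 0.09 for Tm7sf2 and -0.03 to 0.17 for Stard4.

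Equal replicate numbers were checked for pairing on 8445 genes. The correlations of deviations from the genotype mean were 0.083, 0.108, 0.019 and 0.107 for replicates 1 to 4, which does not reach the limit of 0.1 in each, so the numbers were not taken to pair the mice. The values move with the measure, since rank correlations of the same deviations were 0.003, 0.06, -0.082 and 0.034. With the replicate block, 12 members were called higher and 1 lower, as without it. Among related genes the block ended the calls of Elovl2 (1.20, adjusted p = 0.0516), Dgat1 (0.80, adjusted p = 0.0585), Cyp46a1 (1.48, adjusted p = 0.0847) and Acadvl (-0.63, adjusted p = 0.0649). No interaction with sex was called among the members with DESeq2 size factors or without the low-count filter.

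Counts after amplification are not independent molecules. Among the members the fewest counts in a mouse were 11 for Acacb and 194 for Fads2, and the standard errors of their log2 fold changes were the largest, 0.70 and 0.29.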

Other observations

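Of 10 genes of fatty acid oxidation, which runs opposite to synthesis, 1 was called higher and 2 lower. Of all genes tested, 9.12% were called higher and 8.00% lower. The median log2 fold change of the 10 genes was -0.05. Slc25a20, the mitochondrial carnitine carrier, had 37.2 to 45.6 CPM in control and 59.6 to 66.2 CPM in Nav-Tsc2 mice, a log2 fold change of 0.58. Cpt1a, which loads fatty acids onto carnitine and is inhibited by malonyl-CoA, had 61.9 to 86.1 CPM in control and 39.3 to 63.2 CPM in Nav-Tsc2 mice, a log2 fold change of -0.60. Acadvl, a dehydrogenase for very long chains, had a log2 fold change of -0.66, and 42.9% of its exon sequence overlaps Dvl2 on the other strand. The call of Cpt1a was lost in 6 of the 8 fits that left out 1 mouse (adjusted p up to 0.0863), and that of Acadvl in 4 of them (adjusted p up to 0.0662).

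Of 8 genes of glycerolipid synthesis, 7 were tested and 1 was called higher, against 9.12% of all genes tested. Dgat1, which makes triglyceride, had 5.13 to 10.9 CPM in control and 10.8 to 16.8 CPM in Nav-Tsc2 mice, a log2 fold change of 0.77, and its call was lost in 11 of 16 alternatives (adjusted p up to 0.131). Agpat2 and Dgat2 had log2 fold changes of 1.26 and 0.91 and were not called.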
